A study of Mus musculus with 16 samples.

Results

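The genes examined were the adipokines Adipoq, Lep, Retn, Cfd and Rbp4 and the signalling genes Adipor2, Insr, Irs1, Irs2 and Akt2, chosen by name and described by all of their probes. The annotation of the array named a probe for 8 of the 10 genes. These genes have 9 of the 46643 probes in the file, and 8 of the 9 were among the 39730 probes tested. Cfd (the protease adipsin) and Irs2 (a docking protein of the insulin receptor) were not analysed here. The RNA came from female C57BL/6 mice, caged singly on chow, that spent 48 h at 22°C and then 24 h at 8°C (cold) or 72 h at 22°C (room temperature, RT). Illumina MouseWG-6 arrays were run for samples labelled white adipose tissue (WAT) and for brown adipose tissue (BAT), with 3 arrays per temperature each, and for samples labelled liver, with 2 per temperature. The methods name separate animals as the source of the samples within a tissue, the tissues coming from the same mice, and the age of the mice is not given in the sources used here.

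Adipokines are proteins that fat cells release into the blood. Adiponectin acts on liver and muscle through the receptors AdipoR1 and AdipoR2, and leptin reports fat stores to the brain. Insulin binds its receptor, which phosphorylates docking proteins such as IRS1, and these recruit the lipid kinase PI3K that leads to activation of the kinase AKT2 and to glucose uptake in fat and muscle. In cold-exposed mice BAT takes up much glucose and lipid, and insulin signalling in adipose tissue is one of the inputs to that uptake.

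Signals had background already subtracted, so that a value near 0 or below it lies at background. They also had nearly the same quartiles on all 16 arrays, so their distributions had been made alike before deposit. A probe was called detected at a detection score of at least 0.95, and 11915 to 17399 probes were detected per array. For tests the signals were corrected with the normexp model (offset 16), quantile-normalized and put on the log2 scale, and 1 limma fit covered all 16 arrays. A probe is said to differ at a p under 0.05 after Benjamini-Hochberg adjustment over the 39730 probes tested. Errors of log2 differences are standard errors (SE) of this fit, intervals are at 95%, and fold changes of dim probes are understated because of the offset. If a probe was undetected on all arrays of a group, its fold is a lower bound, taken against the dimmest detected probe of those arrays. The arrays are few, which limits the precision of every value.

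Adipocyte and hepatocyte markers went against the labels WAT and liver, and these arrays are named by label only. All 14 adipocyte markers tested were detected on every array labelled liver and on every BAT array, whereas 9 to 11 of them were detected on the arrays labelled WAT. Their summed signal on the arrays labelled WAT was 19544 to 23603 in the cold and 22375 to 23692 at RT. On BAT arrays it was 69202 to 72535.5 in the cold and 66820 to 73726 at RT. The arrays labelled liver had 96552 and 105810 in the cold and 75666 and 98283 at RT. Plin1, which encodes the coat protein of adipocyte lipid droplets, had signals of -8.4 to 4.4 on the cold arrays labelled WAT and -5.7 to -4 on the RT arrays. Plin1 on the arrays labelled liver had 628.4 and 483 in the cold and 515 and 585.7 at RT. The summed signal of 12 hepatocyte markers was 125197 to 137004 in the cold and 136615 to 139361 at RT on the arrays labelled WAT. Those labelled liver had 6138 and 11597 in the cold and 82308 and 123163 at RT, and BAT arrays 1041 to 1160 and 3032 to 8629. The second cold array labelled liver stood apart from the other 3 of that label, with summed signals of 18905 for 12 skeletal muscle markers, against 893.9 to 1431, of 27883 for 12 brown adipocyte markers, against 1634 to 3187, and of 2987 for 6 lymphocyte markers, against 95.2 to 180.9. Each direction given below therefore holds for the arrays as labelled. In a tissue sample a smaller share of adipocytes and less transcript per adipocyte cannot be told apart.

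Adipoq, which encodes adiponectin, was at or near background on the arrays labelled WAT and bright on the others. Its signal on the arrays labelled WAT was 32.4, 16.6 and 27.5 in the cold and 12.9, 65.7 and 14.8 at RT, the RT array with 12.9 being the 1 of 16 on which it was not detected. The arrays labelled liver had 18483 and 8258 in the cold and 8151 and 10227 at RT. On BAT arrays it was 3918, 3544 and 3245 in the cold and 5064, 4119 and 4711 at RT. The labels do not overlap, with labelled liver above BAT and BAT above labelled WAT at each temperature. The log2 difference of labelled WAT from BAT was -6.45 ± 0.36 in the cold, 87.5-fold lower (limma adjusted p = 5.01e-08), and -6.80 ± 0.36 at RT, 112-fold lower (adjusted p = 3.87e-08). Labelled WAT lay 294-fold below labelled liver in the cold (-8.20 ± 0.41, adjusted p = 3.08e-08) and 227-fold below it at RT (-7.83 ± 0.41, adjusted p = 2.38e-07). Labelled liver was 3.36-fold above BAT in the cold (1.75 ± 0.41, adjusted p = 0.0118), and at RT the difference of 1.02 ± 0.41 did not pass (adjusted p = 0.180). The difference in the cold rested on the first cold array labelled liver: without it the value was 1.16 (adjusted p = 0.164), and the call was also lost without background correction and in the authors' value table.

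Lep, which encodes leptin, had the same order of labels at each temperature. It was undetected on all 6 arrays labelled WAT, with signals of -1.8, 0 and -7 in the cold and -8.9, -6.9 and 0.5 at RT. Lep on the arrays labelled liver read 9632 and 6669 in the cold and 4056 and 10789 at RT, and on BAT arrays 893, 1147 and 476.4 in the cold and 1365, 1560 and 1474 at RT. No array labelled liver was as low as the highest BAT array. Labelled WAT was at least 253-fold below labelled liver in the cold (adjusted p = 1.33e-08) and at least 221-fold below it at RT (adjusted p = 7.38e-08). Against BAT it was at least 26.2-fold lower in the cold (adjusted p = 1.49e-07) and at least 49.0-fold lower at RT (adjusted p = 4.39e-08). Labelled liver lay above BAT by 3.27 ± 0.38 in the cold, 9.68-fold (adjusted p = 9.92e-05), and by 2.17 ± 0.38 at RT, 4.51-fold (adjusted p = 0.00204). None of these calls was lost when any single array was left out.

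Retn, which encodes resistin, a hormone made by white adipocytes in mice, was bright on the arrays labelled liver alone among the groups. There it read 251.7 and 88.4 in the cold and 66.6 and 99.4 at RT. It was undetected throughout on the arrays labelled WAT, with 2.8, 8.5 and -1.3 in the cold and 7.1, 0.7 and -1.4 at RT. On BAT arrays it was close to the detection limit, at 15.6, 15.7 and 16.9 in the cold and 16.4, 3.3 and 11.8 at RT. Labelled liver exceeded BAT 5.22-fold in the cold (2.38 ± 0.30, adjusted p = 0.000170) and 3.53-fold at RT (1.82 ± 0.30, adjusted p = 0.00126). Labelled WAT was at least 5.40-fold below labelled liver in the cold (adjusted p = 1.64e-05) and at least 3.20-fold below it at RT (adjusted p = 0.000612). Between labelled WAT and BAT the difference was -0.46 ± 0.26 in the cold (adjusted p = 0.333) and -0.29 ± 0.26 at RT (adjusted p = 0.623), and neither passed.

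Rbp4 ran the other way from the remaining adipokines. It encodes the carrier of retinol in plasma, which hepatocytes make in large amounts and adipocytes make too. Its signals on the arrays labelled WAT were 915, 1002 and 980.8 in the cold and 840.5, 1013.9 and 1023.2 at RT, above every other array. The arrays labelled liver had 394.1 and 132.2 in the cold and 445.7 and 230.3 at RT, and the BAT arrays 192.6, 266.5 and 324.9 in the cold and 200, 176.6 and 177.1 at RT. Labelled WAT was higher than BAT 3.62-fold in the cold (1.86 ± 0.32, adjusted p = 0.000925) and 4.86-fold at RT (2.28 ± 0.32, adjusted p = 0.000179). The difference from labelled liver was 3.99-fold in the cold (2.00 ± 0.36, adjusted p = 0.00139), with 1.26 without the second cold array labelled liver and 2.73 without the first, both past the threshold, and 2.89-fold at RT (1.53 ± 0.36, adjusted p = 0.0164). The RT difference from labelled liver lost its call without the second or the third RT array labelled WAT, or the second RT array labelled liver, where it was 1.08 (adjusted p = 0.253). Labelled liver and BAT differed by -0.14 ± 0.36 in the cold, with an interval of -0.92 to 0.64, and by 0.75 ± 0.36 at RT, and neither passed (adjusted p = 0.889 and 0.298).

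**Figure D1:**
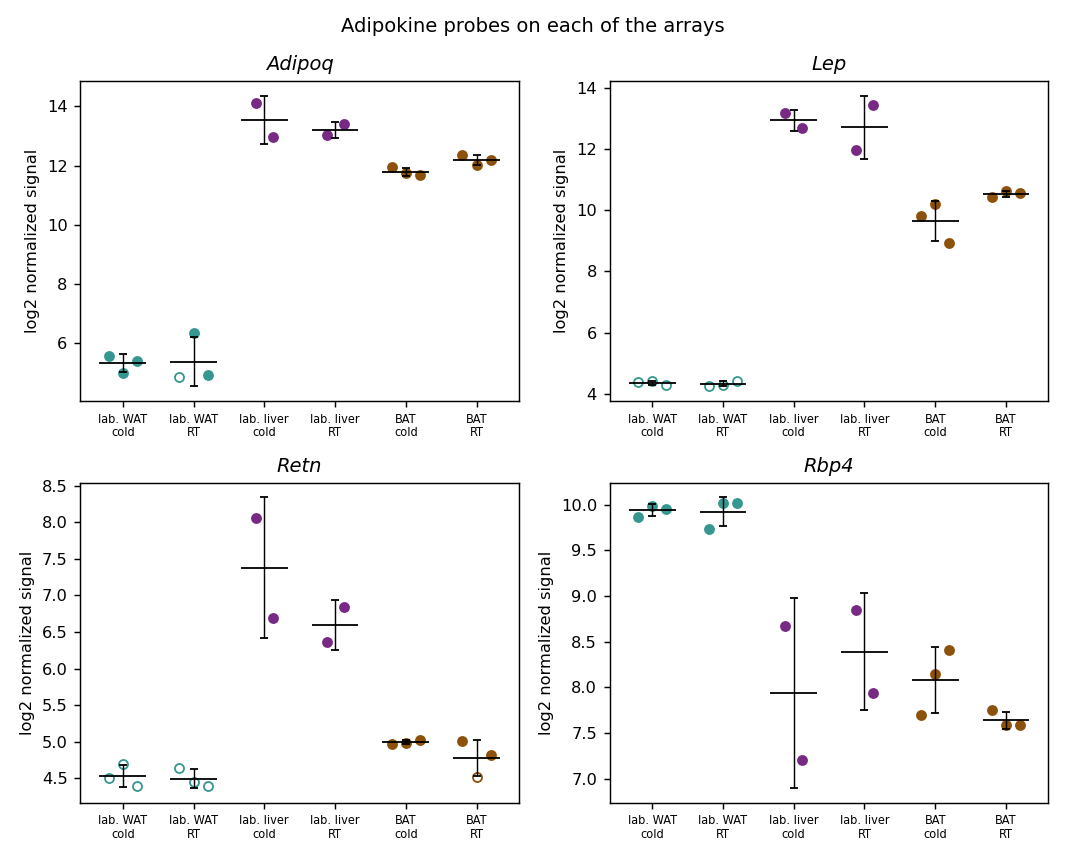
Each panel plots the log2 normalized signal of 1 adipokine probe (y axis) on every array of the 6 groups (x axis; lab. stands for labelled). Filled circles are arrays on which the probe was detected and open circles are not; the long bar is the group mean and the error bar 1 SD. Adipoq and Lep lie lowest on the arrays labelled WAT and highest on those labelled liver, and Rbp4 is highest on the arrays labelled WAT, at deposited signals of 840.5 to 1023.2.

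Across the 16 arrays the log2 signals of Adipoq and Lep went together (Pearson r = 0.98), and Adipoq and Rbp4 ran opposite (r = -0.88). These values describe arrays that fall into separate clusters by tissue label and carry no test. By the same measure the named genes most like Adipoq were Cidec, a lipid droplet protein of adipocytes and one of the adipocyte markers (r = 0.997), Aoc3, an amine oxidase (r = 0.995), and Anxa2, a membrane-binding annexin (r = 0.995). Those most like Lep were Ahnak, Palm and Tenm4 (r = 0.995, 0.992 and 0.992), and those most like Rbp4 were Nit1, Fam20a and Tpmt (r = 0.975, 0.957 and 0.955). For Retn they were Pdlim7, Sdk1 and App (r = 0.983, 0.976 and 0.975).

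**Figure D2:**
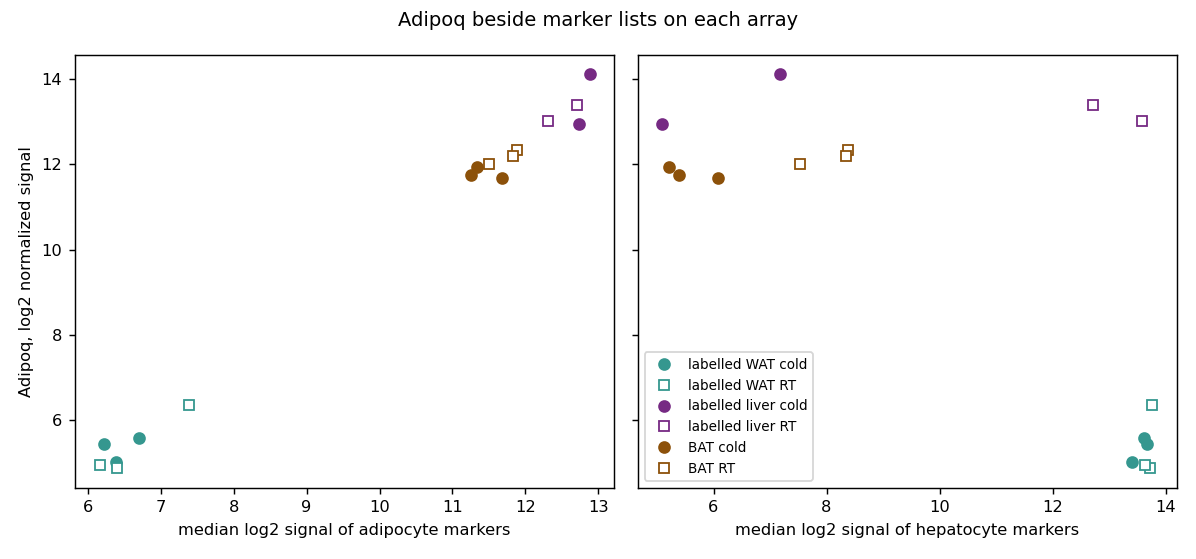
The log2 normalized signal of Adipoq (y axis) is set beside the median log2 signal of 14 adipocyte markers (left, x axis) and of 12 hepatocyte markers (right, x axis), 1 symbol per array, with filled circles for cold and open squares for RT. The 6 arrays labelled WAT sit at low Adipoq and high hepatocyte signal, and the RT arrays labelled liver are high on both axes of the right panel.

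The bases upstream of the 3 adipokine genes that were brightest on the arrays labelled liver are shown because Adipoq, Lep and Retn shared this top position. They were taken from RefSeq on build GRCm38.p6, the 250 bases before each gene's start on the plus strand, written 5′ to 3′. Adipoq lies at chr16:23146286-23146535, Lep at chr6:29059971-29060220 and Retn at chr8:3655520-3655769. Capitals mark matches on either strand to TTGCNNAA, a form of the site that C/EBP factors bind, to CCAAT and to TATAA.
Adipoq: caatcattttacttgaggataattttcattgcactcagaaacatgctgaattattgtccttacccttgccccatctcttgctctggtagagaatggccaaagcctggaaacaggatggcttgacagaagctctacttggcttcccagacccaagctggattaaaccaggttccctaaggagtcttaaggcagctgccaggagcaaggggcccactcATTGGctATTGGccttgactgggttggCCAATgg
Lep: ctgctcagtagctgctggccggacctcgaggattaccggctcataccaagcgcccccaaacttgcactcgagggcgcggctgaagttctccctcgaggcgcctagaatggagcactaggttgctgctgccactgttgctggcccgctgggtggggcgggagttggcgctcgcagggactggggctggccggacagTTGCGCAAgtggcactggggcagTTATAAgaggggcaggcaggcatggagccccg
Retn: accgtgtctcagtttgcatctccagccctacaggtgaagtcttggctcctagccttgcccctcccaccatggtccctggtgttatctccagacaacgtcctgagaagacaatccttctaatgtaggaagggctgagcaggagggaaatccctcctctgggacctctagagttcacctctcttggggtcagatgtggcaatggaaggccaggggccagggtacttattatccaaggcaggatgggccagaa
Lep has TTGCGCAA from 55 bases before the start, which reads as the motif on both strands, and TTATAA from 32 bases before it, where matches on the 2 strands overlap. Adipoq has CCAAT from 7 bases before the start and its complement ATTGG from 34 and from 27 bases before it. The Retn window holds none of these letters. Of 32851 promoter windows of 250 bases, 9.56% hold TTGCNNAA, 33.8% CCAAT and 22.8% TATAA on either strand. These matches are a description of the sequence, and binding was not measured.

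In the cold no adipokine passed in BAT. Over the 8 member probes tested 0 were called in BAT, where 0.639% of all probes tested were called. The unadjusted limma p was 0.0228 for Lep and 0.000572 for Akt2. The share of all probes with so low an unadjusted p was not counted. The median log2 difference of the 8 was -0.28, against 0.00 over all probes tested. Lep signals were 893, 1147 and 476.4 in the cold, against 1365, 1560 and 1474 at RT, so that every cold array lay below every RT array. The difference was -0.88 ± 0.34 (interval -1.62 to -0.15, limma adjusted p = 0.441). Without the third cold array it was -0.53, since that array had the lowest Lep signal. Adipoq did not overlap either, averaging 3569 ± 337 in the cold and 4631 ± 477 at RT (SD, n = 3 each), and differed by -0.40 ± 0.36 (adjusted p = 0.900). A lower position without overlap was found for 8.04% of all probes in BAT. Retn and Rbp4 overlapped between the temperatures, at differences of 0.21 ± 0.26 (adjusted p = 0.941) and 0.44 ± 0.32 (adjusted p = 0.823).

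Markers of other cells differed on the BAT arrays too. The median log2 difference of the 12 hepatocyte markers in the cold was -2.12, with 6 lower, and that of the 14 adipocyte markers was 0.12, with none called. For the 12 skeletal muscle markers it was -0.52, with none called. Of 12 brown adipocyte markers 2 were higher, and none of 9 macrophage, 10 endothelial, 6 lymphocyte and 3 erythroid markers tested was called in BAT. Their part in the values of Lep and Adipoq was not tested. Fewer probes were detected on the cold BAT arrays too, 13220 to 13455, against 14015 to 14894 at RT.

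On the arrays labelled WAT 0 of the 8 member probes were called in the cold, where 0.0705% of all probes were, and their median difference was -0.01. Adipoq and Rbp4 differed by -0.04 and 0.02 and overlapped between the temperatures. Lep and Retn were undetected in both groups, so that no difference is given. The third cold array labelled WAT stood apart in markers of the exocrine pancreas, whose summed signal reached 60142 there, against 1289 to 2285 on the RT arrays of this label. Its signals of Adipoq and Rbp4, at 27.5 and 980.8, lay between those of the other cold arrays.

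On the arrays labelled liver 0 of the 8 were called in the cold, where 2.59% of all probes were, and the median difference was 0.20. Adipoq differed by 0.33 ± 0.45 (interval -0.64 to 1.30) and Lep by 0.22 ± 0.41 (interval -0.68 to 1.12), and both overlapped. Retn had 251.7 and 88.4 in the cold, against 66.6 and 99.4 at RT. Its difference was 0.78 ± 0.32 (adjusted p = 0.351), and without the second cold array it was 1.46 and passed (adjusted p = 0.00314), resting then on the single brightest array. Rbp4 differed by -0.45 ± 0.39 (adjusted p = 0.852), and by 0.28 without the second cold array. Hepatocyte markers were lower in the cold on these arrays, 10 of the 12 being called with a median of -6.04, while the median of the 14 adipocyte markers was 0.23 with 1 higher. Their part in these values was not tested.

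**Figure D3:**
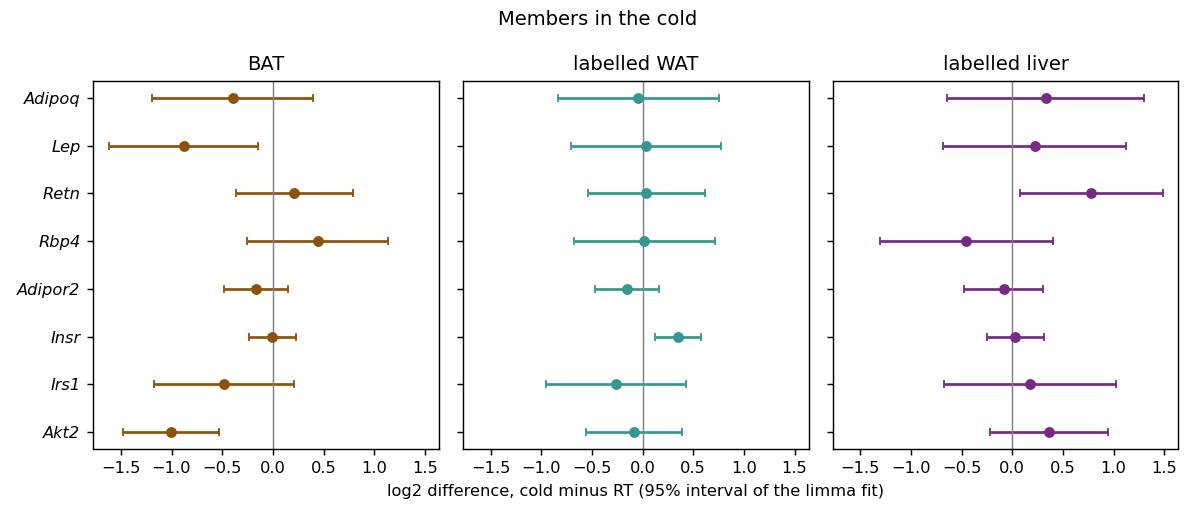
The log2 difference of cold minus RT (x axis) is plotted for each member gene (rows) in BAT, labelled WAT and labelled liver, with bars for the 95% interval of the limma fit. No member passed in any tissue. The interval of Akt2 in BAT, -1.47 to -0.53, and that of Lep in BAT, -1.62 to -0.15, lie below 0, as does none in the other panels, and the intervals of Insr on the arrays labelled WAT and Retn on those labelled liver lie above 0.

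Adipor2, the adiponectin receptor that predominates in mouse liver, was bright on all arrays and varied least among the members that were detected on every array. Its signals on the arrays labelled WAT were 1736, 1574 and 1875 in the cold and 1686, 2171 and 1955 at RT. Labelled liver had 1274 and 1778 in the cold and 1676 and 1517 at RT, and BAT had 2088, 2434 and 1866 in the cold and 2259, 2251 and 2708 at RT. The group means keep the order BAT, labelled WAT and labelled liver at each temperature. Neighbours in that order overlap in the cold. At RT they do not, and the gaps between the nearest arrays were small, 2171 against 2251 for labelled WAT and BAT and 1686 against 1676 for labelled WAT and labelled liver. The share of all probes without overlap was counted for cold against RT only. Between labels it was not counted, for Adipor2 or any other member. Labelled liver was lower than BAT at RT by 0.57 ± 0.16 on the log2 scale, 1.48-fold (adjusted p = 0.0451). That call was lost in 9 of the 16 fits without 1 array, with -0.47 (adjusted p = 0.156) without the third RT array of BAT and -0.50 (adjusted p = 0.270) without the second RT array labelled liver, and in 5 of 9 other settings, the replicate block among them. In the cold the difference was -0.49 ± 0.16 (adjusted p = 0.0686). Between cold and RT Adipor2 differed by -0.15 ± 0.15 under the WAT label, by -0.09 ± 0.18 under the liver label and by -0.17 ± 0.15 in BAT, and none passed.

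Insr, the insulin receptor, had a dim probe that was detected on 3 of the 16 arrays. The signals on the arrays labelled WAT were 16.7, 12.7 and 15.7 in the cold, against 6.4, 9.5 and 1.3 at RT, and the 2 temperatures did not overlap. The other arrays ranged from -0.6 to 10.8. Of the 3 cold arrays labelled WAT 2 passed the detection score, and no RT array of that label did. The difference of cold from RT was 0.35 ± 0.11 on the log2 scale (interval 0.12 to 0.58) and did not pass (adjusted p = 0.505, unadjusted p = 0.00639). Its size depends on how signals near background are treated, with 0.16 at a normexp offset of 50 and 1.15 without background correction or in the authors' value table, and it passed at an adjusted p in none of the settings. As a bound it amounts to at least 1.02-fold, and 4.95% of all probes were higher without overlap on these arrays. In the cold labelled WAT was at least 1.05-fold above BAT (adjusted p = 0.0402) and at least 1.24-fold above labelled liver (adjusted p = 0.0289). The first of these calls was lost in 8 of the 16 fits without 1 array and the other in 4, with the largest loss without the second cold BAT array (0.29, adjusted p = 0.155) and the second cold array labelled liver (0.35, adjusted p = 0.194). Of 9 other settings 4 lost the call against BAT, at adjusted p of 0.0565 to 0.0648.

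Irs1, the docking protein that links the receptor to PI3K, had 2 probes. One was undetected on all 16 arrays and was not tested, and the other was detected on all of them. The detected probe read 143.7, 161 and 61.9 in the cold and 131.1, 114 and 183.2 at RT on the arrays labelled WAT. Labelled liver read 138.3 and 254.9 in the cold and 160.4 and 170 at RT, and BAT read 133.1, 164.1 and 155.3 in the cold and 238.5, 149.6 and 281.1 at RT. All 6 groups overlap. The largest cold difference was that in BAT, -0.48 ± 0.32 (interval -1.18 to 0.21, adjusted p = 0.792), and no comparison of Irs1 passed.

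Akt2, the form of the kinase that carries insulin's signal to glucose transport in fat and muscle, was brightest in BAT. On BAT arrays it read 52.4, 55 and 24.2 in the cold, against 83.2, 87.8 and 133.6 at RT. Every cold array lay below every RT array, as for 8.04% of all probes in BAT. The difference was -1.00 ± 0.22, 2.00-fold lower (interval -1.47 to -0.53), and missed the threshold (limma adjusted p = 0.0697, unadjusted p = 0.000572). It passed when only probes detected on at least 2 arrays were tested (adjusted p = 0.0393), and ranged from -1.15 to -0.74 when single arrays were left out. Akt2 was undetected throughout on the arrays labelled WAT, at -10.1 to -2.7 in the cold and -4.2 to 1.2 at RT. On those labelled liver it read 9.6 and 24.2 in the cold, against 6.7 and 8.5 at RT, without overlap, and the difference was 0.36 ± 0.27 (adjusted p = 0.767), in a comparison where 21.7% of all probes were higher without overlap. The value of 24.2 is from the second cold array, the one with high muscle markers, and without it the difference was 0.07.

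Akt2 on the arrays labelled WAT was at least 1.86-fold lower than in BAT in the cold (adjusted p = 0.000203) and at least 3.79-fold lower at RT (adjusted p = 3.19e-06). Under the liver label it was 1.77-fold lower than in BAT in the cold (-0.82 ± 0.24, adjusted p = 0.0395) and 4.55-fold lower at RT (-2.19 ± 0.24, adjusted p = 6.31e-05). In the cold these groups met at a signal of 24.2, on the second cold array labelled liver and the third cold BAT array. The call in the cold was lost in 11 of the 16 fits without 1 array and in 3 of 9 other settings. Without the first cold array labelled liver the value was -0.53. The genes most like Akt2 across the arrays were Klhl41, a protein of muscle sarcomeres, Gldn and Bckdk (r = 0.960, 0.958 and 0.958). The summed signal of 12 skeletal muscle markers was 36219 to 51201 on cold and 49906 to 74342 on RT BAT arrays, against at most 18905 on any array of the other labels, and none of the 12 was called in the cold in BAT. The part of muscle RNA in the Akt2 signal was not tested.

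**Figure D4:**
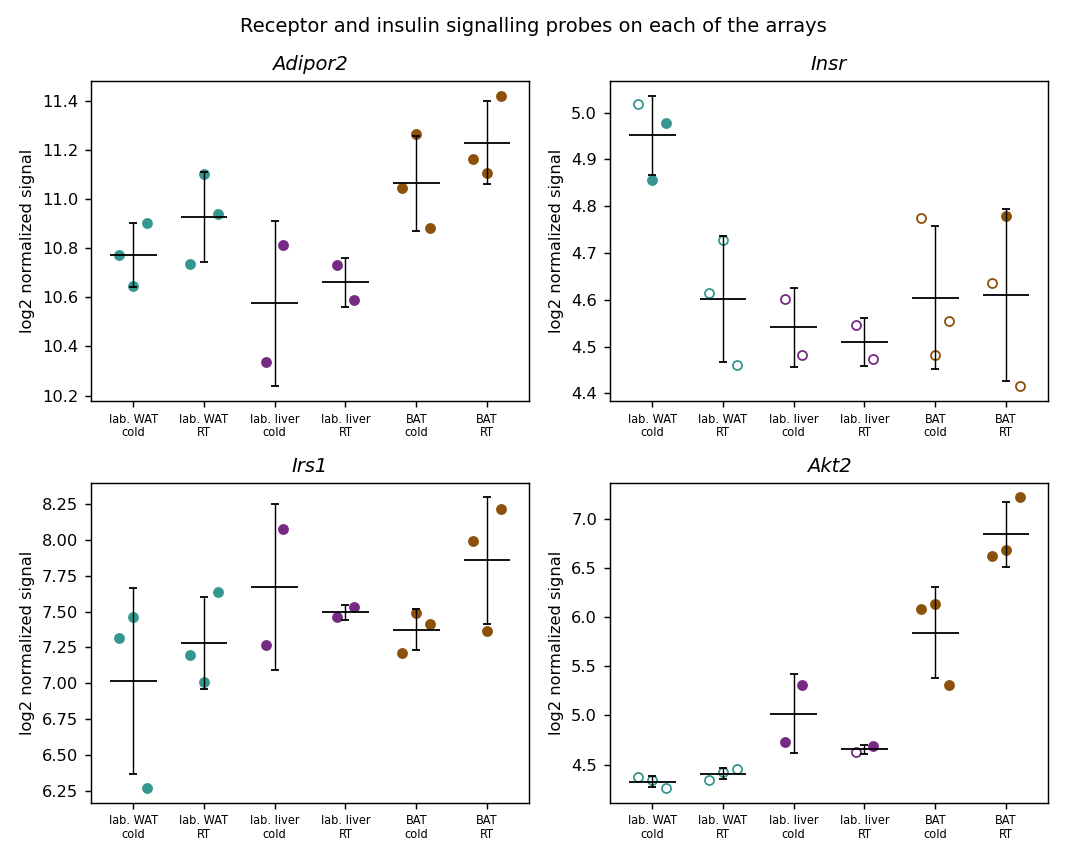
Each panel plots the log2 normalized signal of 1 receptor or signalling probe (y axis) on every array of the 6 groups (x axis; lab. stands for labelled), with filled circles for detected and open circles for undetected, the long bar for the group mean and the error bar for 1 SD. Akt2 is highest in BAT, with the cold arrays below the RT arrays, and the 3 cold arrays labelled WAT lie above the others for Insr, on a scale that spans less than 1 log2 unit.

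Between labels the calls among the 8 probes were more frequent than between temperatures, as they were over all probes. Labelled WAT against BAT had 2 higher and 3 lower of 8 in the cold, where 7.38% of all probes tested were higher and 10.1% lower, and 1 higher and 3 lower at RT, where 7.34% were higher and 9.69% lower. Labelled liver against BAT had 3 higher and 1 lower in the cold (7.82% and 6.61% of all probes) and 2 higher and 2 lower at RT (4.38% and 5.57%). Labelled WAT against labelled liver had 2 higher and 3 lower in the cold (7.86% and 11.2%) and 1 higher and 3 lower at RT (4.57% and 5.03%). Adipocyte markers lay on the same side as Adipoq and Lep: on the arrays labelled WAT 13 of 14 were lower than in BAT in the cold and 12 at RT. These comparisons share arrays, and the same groups stand on one side of several of them.

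**Figure D5:**
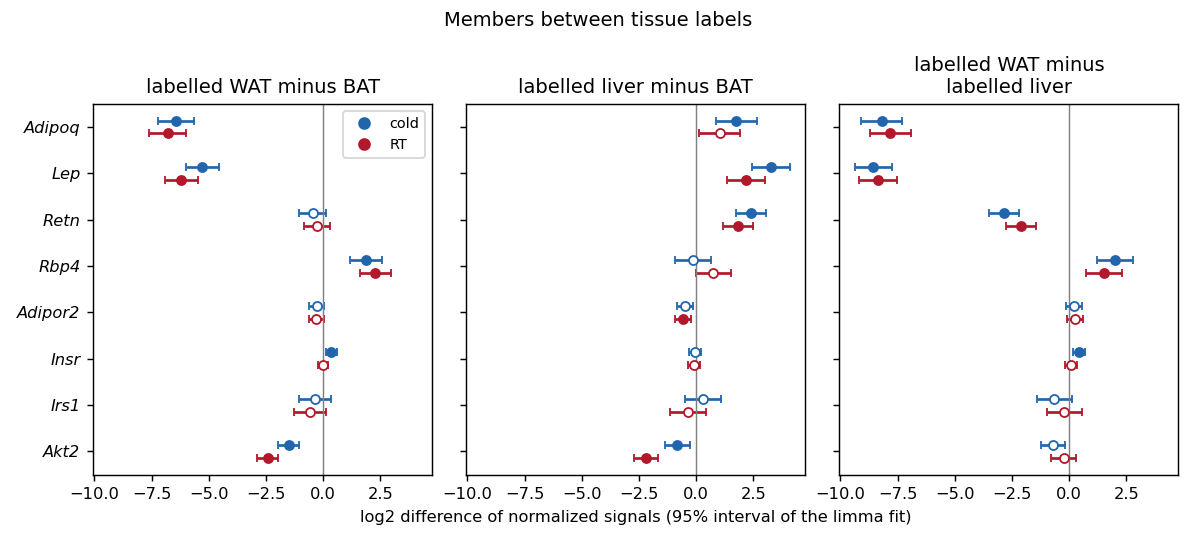
The log2 difference between tissue labels (x axis) is plotted for each member gene (rows), with bars for the 95% interval of the limma fit, blue for cold and red for RT, and filled circles where the adjusted p was under 0.05. Adipoq lies far to the left where labelled WAT is compared, at -8.20 to -6.45, and so does Lep. All points are fitted differences. Lep was undetected on the arrays labelled WAT, and its points there exceed in size the lower bounds given in the text. Lep and Retn lie to the right for labelled liver minus BAT.

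The response to cold was also set between labels, as the difference of the 2 cold differences. None of the 8 members passed in any of the 3 comparisons, in which 0.0201% (labelled WAT against BAT), 1.82% (labelled liver against BAT) and 1.46% (labelled WAT against labelled liver) of all probes passed. The closest was Akt2, whose response on the arrays labelled liver exceeded that in BAT by 1.36 ± 0.34 (adjusted p = 0.0779).

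Few genes of the wider pathways passed in the cold. Of 26 other adipokines tested none passed in BAT or on the arrays labelled WAT (0.639% and 0.0705% of all probes), with medians of -0.08 and 0.02. Rarres2, which encodes the chemoattractant chemerin, read 413.4, 365.4 and 372.4 in the cold, against 742.1, 478.1 and 507 at RT, in BAT, and differed without overlap, as 8.04% of all probes did in this direction, by -0.54 ± 0.23 (adjusted p = 0.523). Nampt, the NAD-producing enzyme also called visfatin, read 25.7, 18.2 and 24.8 in the cold and 18.9, 7.9 and 3.6 at RT in BAT (0.49 ± 0.13, adjusted p = 0.159). On the arrays labelled liver, where 2.59% of all probes were called, 1 of the 26 rose and 1 fell. Vegfa, the growth factor of blood vessels, had 1357.9 and 1065.1 in the cold, against 711.1 and 683.5 at RT, and rose by 0.77 ± 0.18 (adjusted p = 0.0389), a call lost in 7 of the 16 fits without 1 array, with the largest drop without the first cold array (0.59, adjusted p = 0.224), and in 7 of 12 other settings. Agt, angiotensinogen, which hepatocytes as well as adipocytes secrete, had 112.1 and 16.4 in the cold, against 535.3 and 244.2 at RT, and fell by 2.56 ± 0.51 (adjusted p = 0.0171). Without the second cold array the value for Agt was -1.57 (adjusted p = 0.0745), and without the first RT array -2.02 (adjusted p = 0.221). It was also lost in 5 of 12 other settings.

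None of the 14 receptors and transducers of adipokines tested passed in any tissue in the cold. Of all probes 0.639% were called in BAT, 0.0705% under the WAT label and 2.59% under the liver label. Adipor1, the other adiponectin receptor, read 1185.7, 1545.3 and 971.4 in the cold and 1460.9, 1812.7 and 1727 at RT in BAT (-0.45 ± 0.14, adjusted p = 0.278). Adipor1 on the arrays labelled liver had 1061.3 and 885.5 in the cold, against 663.5 and 780.5 at RT (0.43 ± 0.17, adjusted p = 0.329). Lepr, the leptin receptor, was detected on no array. Socs3, a feedback inhibitor of leptin and insulin receptors, differed by 0.46 ± 0.35 under the WAT label, by 0.64 ± 0.43 under the liver label and by 0.07 ± 0.35 in BAT, and none passed.

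Between the receptor and Akt 17 further genes were tested, none of which passed in BAT or on the arrays labelled WAT (0.639% and 0.0705% of all probes). Pik3r1, the regulatory subunit of PI3K, read 565.5, 585.3 and 286.3 in the cold and 1039.7, 514 and 1336.8 at RT in BAT, and the difference of -0.95 ± 0.34 did not pass (adjusted p = 0.385). Cblb, a ubiquitin ligase, rose on the arrays labelled liver, with 24.5 and 39.7 in the cold, against 6.8 and 10.5 at RT (0.85 ± 0.15, adjusted p = 0.00640). It was undetected on the first of these RT arrays. That call was lost without the second cold array (0.62, adjusted p = 0.0510) or the first RT array (0.78, adjusted p = 0.0850), and in 3 of 12 other settings. Akt1 was named by the annotation but failed the filter and was not tested. Of 16 targets downstream of Akt none passed in any tissue, the share of all probes being highest under the liver label, at 2.59%. Slc2a4, the insulin-responsive glucose transporter GLUT4, read 1072.6, 982.7 and 800 in the cold and 891, 970.7 and 909.8 at RT in BAT (0.04 ± 0.31), and Foxo1, a transcription factor that Akt keeps out of the nucleus, differed by 0.16 ± 0.22 there.

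Of 15 inhibitors of insulin signalling 1 passed in the cold, on the arrays labelled liver, where 2.59% of all probes were called. Inpp5k, an inositol phosphatase, had 927.8 and 1365.6 in the cold, against 569 and 632 at RT, and rose by 0.89 ± 0.20 (adjusted p = 0.0292), a call lost without the second cold array (0.62, adjusted p = 0.199) or either RT array (0.82 and 0.97, adjusted p = 0.250 and 0.0504), and in 3 of 12 other settings. With limma on the 4 arrays of this label alone Vegfa, Agt, Cblb and Inpp5k each lost their call (adjusted p = 0.352, 0.534, 0.407 and 0.444). Trib3, a pseudokinase that binds Akt, read 24.3, 34 and 92.8 in the cold, against 177.5, 197.9 and 138.6 at RT, on the arrays labelled WAT and did not overlap, in a comparison where 4.96% of all probes were lower without overlap. Its difference of -1.63 ± 0.33 missed the threshold (adjusted p = 0.195). Without the third cold array, the one with high pancreas markers, it was -2.06 and passed (adjusted p = 0.0149). With an intensity trend and robust variances -1.63 passed too (adjusted p = 0.0408). The methods' t-test at an unadjusted p of at most 0.05 and at least 2-fold also called Trib3 (-2.00, unadjusted p = 0.0292). After Benjamini-Hochberg adjustment that test called no probe under the WAT label. The calls on the arrays labelled liver stand beside the lower hepatocyte markers given above, beside 9 fibroblast and preadipocyte markers, of which 3 rose and 1 fell there, and beside 12 brown adipocyte markers, of which 1 rose. The second cold array, without which Agt, Cblb and Inpp5k lost their calls, is the one with high muscle, brown adipocyte and lymphocyte markers. The part of cell makeup in them was not tested.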

How the data were processed

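Samples were grouped by the tissue and temperature in their titles, and the labels of WAT and liver were kept although marker genes went against them. The deposited intensity values are probe signals on a linear scale, which the authors scanned after Illumina amplification and handled in GeneSpring GX. They hold values below 0, so background had been subtracted before deposit. On every array their lower quartile was -2.7, their median 2.7 and their upper quartile 18.35 or 18.4. The arrays had thus been brought to a common distribution before deposit too, and signals from before that step were not available here. The deposited detection score of each probe runs from 0 to 1, is headed as a p-value and rises with the signal. The authors' value table is on the log2 scale, and log2 of signals floored at 5 minus each probe's median gave it back to within 2.54e-06. All of its 16 columns and those of the signals matched a sample.

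Signals were corrected with normexp (neqc of limma 3.58.1 in R 4.3.3, offset 16), quantile-normalized over the 16 arrays and filtered to probes whose score reached 0.6 or more on 2 or more arrays. A mean per group was fitted with limma, and 12 contrasts were tested with Benjamini-Hochberg adjustment over 39730 probes. Gene names came from the platform annotation, updated through Entrez numbers, and 25349 probes had 1 symbol and 21294 none. Where a gene had several probes the brightest was used. Correlations are Pearson's r of log2 signals. Promoter sequences came from RefSeq. The fit was tested on simulated data.

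The members and gene lists were chosen with earlier results of these data known. The genes named are all members, list genes passing in a comparison of cold with RT, 10 list genes named in advance of the fit (Trib3, Adipor1, Lepr, Slc2a4, Akt1, Foxo1, Pik3r1, Socs3, Nampt and Rarres2), and the 3 genes most correlated with each member. Replicates within a tissue are separate animals by the methods. The labels do not say which arrays of different tissues share an animal, and no pairing was used. The rule for pairing asked for 3 or more correlations of same-numbered arrays, each above 0.1, and no comparison met it. Comparisons with labelled liver have only 2 such pairs and could not meet it. Alternatives were other background corrections, normalizations, filters and fits, the authors' value table, the methods' test on it, a replicate block, and leaving out each array. No slide or scan batch is given in the sources used here.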

Additional observations from a re-analysis of the deposited data

Results flagged for a closer look

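No member gene was singled out by a test of its response to cold between labels, and groups of 2 or 3 arrays are too small for a check of single far arrays. Among the other pathway genes tested, those of all the lists above, 4 had a response to cold that differed between labels by the interaction term of the limma fit. Cblb, Inpp5k and Retnla were called for labelled liver against BAT, where 1.82% of all probes were. Mtor was called for labelled WAT against BAT, where 0.0201% were. None was called for labelled WAT against labelled liver, where 1.46% were. Retnla and Mtor were named after their values were seen.

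Cblb had signals of 24.5 and 39.7 in the cold, against 6.8 and 10.5 at RT, on the arrays labelled liver, and of 0.9, 1.8 and -5.8 in the cold, against 15.5, 15.7 and 7.2 at RT, in BAT. The fitted difference between these responses was 1.30 (adjusted p = 0.00285), and because Cblb was undetected on all 3 cold BAT arrays its size is set by the treatment of background. Leaving out the single arrays gave 1.07 to 1.54 and lost the call in 0 of the 16 fits.

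Inpp5k had a log2 difference of cold from RT of 0.89 on the arrays labelled liver and -0.22 in BAT, and its responses differed by 1.11 (adjusted p = 0.0474), a call lost in 13 of the 16 fits without 1 array and in 6 of 9 other settings. Retnla, a relative of resistin, read 6727 and 3319 in the cold, against 1619 and 3100 at RT, on the arrays labelled liver, and 316.3, 314.4 and 496.5 in the cold, against 946.9, 722.8 and 892.5 at RT, in BAT. Its responses differed by 2.26 (adjusted p = 0.0179), a call lost without the first RT array labelled liver (1.80, adjusted p = 0.102) or the first RT array of BAT (2.18, adjusted p = 0.0503). Neither difference of Retnla within a label passed (1.09 on the arrays labelled liver and -1.17 in BAT, adjusted p = 0.150 and 0.0986).

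Mtor, the kinase of the mTOR complexes, read 118.3, 106.8 and 95.8 in the cold, against 209.4, 159.6 and 179.1 at RT, on the arrays labelled WAT, and 405.1, 387.6 and 422.4 in the cold, against 228, 312.7 and 292.3 at RT, in BAT. Its response under the WAT label differed from that in BAT by -1.22 (adjusted p = 0.0415), a call lost in 10 of the 16 fits without 1 array and in 3 of 9 other settings, the replicate block among them (adjusted p = 0.110).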

How the results depend on the processing

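Between labels, each count of member probes called stayed within 1.5 times its value under the other background corrections, normalizations, filters and fits, the authors' value table, the replicate block and a minimum of 2-fold. All of these settings started from deposited signals whose distributions were already alike. They cannot show how the counts depend on that earlier step. For cold against RT, counts of 0 became 1 in BAT (Akt2 lower) with a filter that kept probes detected at 0.95 or more on 2 or more arrays, and 1 in BAT (Akt2) and 1 under the WAT label (Insr higher) with the methods' test at an unadjusted p of at most 0.05 and at least 2-fold. After Benjamini-Hochberg adjustment that test called 0 members, and 13, 0 and 0 probes in all in BAT, labelled WAT and labelled liver, against 254, 28 and 1030 by limma over all arrays. Limma on the 2 groups alone called 174 in BAT, 0 under the WAT label and 0 under the liver label. The response count of labelled liver against BAT became 1 (Akt2) with the stricter filter. With single arrays left out, counts ranged from 0 to 1 for cold under the liver label (Retn higher without the second cold array) and from 2 to 5 for labelled liver against BAT in the cold (2 without the first cold array labelled liver). Response counts ranged from 0 to 2 for labelled liver against BAT (Rbp4 and Akt2 without the first cold array labelled liver, Retn without the second, Lep without the second RT array) and from 0 to 1 for labelled WAT against labelled liver (Retn without the second cold array labelled liver). Without the third RT array of BAT 78 probes in all were called there. Scaling to the 75th percentile moved the median of all probes to -0.18 for labelled liver against BAT in the cold, with 3114 probes higher and 8596 lower in place of 3105 and 2626, and to 0.19 for labelled WAT against labelled liver in the cold, with 10768 and 4343 in place of 3123 and 4450. At RT labelled WAT against labelled liver had a median of 0.14, with 2798 and 1916 in place of 1814 and 1998. Same-numbered arrays deviated from their group means with correlations of -0.07 to 0.10 between temperatures, of -0.13 to 0.14 between labels in the cold and of 0.09 to 0.17 between labels at RT, where all were above 0. No set of 3 pairs had each correlation above 0.1, so the numbers were not taken to pair the arrays. Sets with labelled liver hold 2 pairs and could not meet this rule. At RT their correlations were 0.128 and 0.174 with BAT and 0.103 and 0.104 with labelled WAT. Whether equal numbers mark 1 animal therefore stays unsettled. With the replicate number as a block, member counts in the cold stayed at 0 under each label, 16 probes in all were called under the WAT label in place of 28, and the calls for Adipor2 at RT and Akt2 in the cold between labelled liver and BAT were lost (-0.55 and -0.84, adjusted p = 0.0787 and 0.0611), as was that for Vegfa (0.77, adjusted p = 0.0782). This block joins equal numbers of both temperatures, which are different mice, so it does not stand for the animal shared between tissues. No called difference of a member changed sign under any setting. No fit with the slide as a block was run, as no slide is given in the sources used here. Signals at background limit what can be said of Lep, Retn and Akt2 under the WAT label, of Cblb in BAT and of Insr under each label.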
